A study of Mus musculus with 74 samples.

Results

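Solute carriers are a large family of membrane transport proteins, and their genes, which carry names beginning with Slc, were followed here across the 11 groups of a mouse 2-colour array series on HDAC7 in thymic selection. A gene was taken as a member when the platform's annotation gave its probe a single symbol made of Slc, a number, letters and a number. Of the 13409 distinct symbols measured, 256 fitted that form. Slc2a1 and Slc2a3 were left out by the rule, which left 254 genes: 248 are carriers by name, and 6 are named after a carrier (regulators, an adaptor and opposite-strand genes). Each gene is given by its first probe in file order. Each was sorted into 1 of 14 substrate classes by its family, with some genes placed singly, or, for those 6, into none. The Slc6 carriers were counted with neurotransmitters, amines and osmolytes, and Slc16a10 with monocarboxylates. Counts for the amino acid class therefore leave out the amino acid carriers among them.

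Each family of solute carriers moves its own cargo across a membrane. The Slc7, Slc38, Slc1 and Slc6 families carry amino acids and related compounds. The Slc30 proteins move zinc out of the cytoplasm and the Slc39 proteins move it in. Slc16 proteins carry monocarboxylates, Slc35 proteins feed nucleotide sugars into the Golgi apparatus, and most Slc25 proteins sit in the inner mitochondrial membrane. A T cell that has been activated through its receptor takes up more amino acids and glucose than a resting one, so carrier genes are widely studied in lymphocytes.

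Per the labels, 7 groups came from the DO11.10 T cell hybridoma, a fused T cell line, where every array set a construct's RNA against that of untreated hybridoma cells. HDAC7_VP16 (10 arrays) carried HDAC7, a class IIa histone deacetylase, joined to the VP16 activation domain, by its name. HDAC7DP_PI (8 arrays) carried a construct called HDAC7 DP, whose meaning no source used here gives, and MSCV_PI (8 arrays) carried the empty MSCV retrovirus. Both of these were treated with PMA and ionomycin, which stand in for a T cell receptor signal, for 2.5 h. MEF2D_VP16 (4 arrays) carried the transcription factor MEF2D joined to VP16, NUR77 (4 arrays) carried the orphan nuclear receptor Nur77, and MSCV_A (12 arrays) and MSCV_B (4 arrays) were unstimulated cells with the empty virus. The other 4 groups held 6 arrays each of total thymocytes: DO11.10 T cell receptor transgenic mice over mhc -/- mice, and DO11.10 mice 3 h, 6 h and 12 h after antigenic peptide over uninjected ones. No source used here gives strain, sex, age, number of animals or pooling. Total thymocytes are a mixture, so fewer cells of a type and less RNA per cell cannot be told apart in them. The values are ratios, so no level of a lineage marker could be read as a check of the cell type.

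A gene was called when its adjusted p in limma, a linear model with a shared estimate of variance, was under 0.05 over all 16463 probes. Words such as rose and fell are kept for genes that were called. The p-values measure the spread between these arrays, which may be technical, since nothing in the labels says that arrays hold separate cultures or animals.

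Promoters of 3 genes that the results below turn on are shown first, as 250 bases before the transcription start of the RefSeq annotation (GRCm38.p6). Slc30a1, the zinc exporter with the largest rise after PMA and ionomycin, lies at chr1:191906531-191906780, plus strand, with a match to the metal response element core in capitals. Slc5a11 lies at chr7:123214616-123214865 and Slc2a2 at chr3:28697653-28697902, both plus strand, with a match to the NBRE, the element that Nur77 binds as a monomer, in capitals. Both rose with Nur77, though for Slc2a2 the groups overlapped and the call ended without dye orientation in the model.
Slc30a1: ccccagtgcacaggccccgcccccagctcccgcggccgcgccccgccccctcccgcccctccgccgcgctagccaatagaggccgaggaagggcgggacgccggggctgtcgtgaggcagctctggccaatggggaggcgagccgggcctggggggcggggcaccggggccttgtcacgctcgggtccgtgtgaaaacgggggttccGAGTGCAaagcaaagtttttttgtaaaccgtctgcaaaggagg
Slc5a11: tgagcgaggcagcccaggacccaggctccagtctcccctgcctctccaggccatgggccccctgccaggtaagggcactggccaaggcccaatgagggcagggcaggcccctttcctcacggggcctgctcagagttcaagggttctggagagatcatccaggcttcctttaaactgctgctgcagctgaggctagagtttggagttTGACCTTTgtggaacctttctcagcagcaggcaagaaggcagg
Slc2a2: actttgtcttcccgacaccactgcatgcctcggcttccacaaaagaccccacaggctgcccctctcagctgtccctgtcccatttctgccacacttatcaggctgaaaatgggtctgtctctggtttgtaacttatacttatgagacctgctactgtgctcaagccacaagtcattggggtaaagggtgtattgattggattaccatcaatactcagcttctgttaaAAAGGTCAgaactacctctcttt

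The metal response element core, the site of the zinc sensor MTF1, was searched as TGCACNC or TGCGCNC on both strands of a window that also held 50 bases after the start. It was present in 25.7% of all 32851 RefSeq windows and in 33.2% of the 268 windows of the 204 members that had one, and the Slc30a1 window held 2 matches, of which the one shown begins at -43 on the minus strand. The NBRE was searched as AAAGGTCA on both strands and was present in 1.51% of all windows and in 1.49% of the members' windows. It occurred in 4 members: Slc5a11 at -43 on the minus strand, Slc2a2 at -23 on the plus strand, and Slc26a3 and Slc27a2. The last pair did not pass the test with Nur77 (log2 changes of 0.07 for Slc26a3, adjusted p = 0.816, and -0.01 for Slc27a2, adjusted p = 0.977). The MEF2 motif (CTA, then 4 bases of any kind, then TAG) was present in 3.69% of all windows and in 4.1% of the members' windows. It occurred in 11 members, of which Slc19a1, Slc20a1 and Slc29a1 were lower with MEF2D-VP16 (log2 changes of -1.02, -0.87 and -0.94) and 8 were not called, and not in the window of Slc7a8, the member with the largest rise there. A match is a run of letters and not a site shown to be bound.

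Arrays held 16463 probes with 0 missing values, and array medians ran from -0.021 to 0.023 before each array was centred. Both label fields of every array name the same dye, so dye orientation came from the titles, and the direction of the ratios, which no source used here gives, was read from the data as test RNA over partner. The title of HDAC7_VP16 replicate 1 names HDAC7-VP16 while its source name gives the empty virus. Of 342 pairs of arrays with the same dye in slide series 14 and 15, 19 correlated below -0.3, all of them with MSCV_A replicate 3 or 9, whose sign is therefore unsettled. Arrays of opposite dye orientation had a negative median correlation over all probes in MSCV_A (-0.401), HDAC7_VP16 (-0.475) and MSCV_B (-0.241). In the other groups that median ran from 0.146 (peptide 12 h) to 0.854 (DO11.10 over MHC-deficient thymocytes). MEF2D_VP16 replicates 1 and 2 held the value 0.0 for 299 and 393 probes, against 32 to 69 probes for the most frequent value of the other arrays, and 7 members held it there. Slc16a3 equalled another probe exactly on 20 arrays, Slc7a5 on 17 and Slc25a3 on 13, all of them hybridoma arrays, while the other 251 members did so on at most 7. How missing values were filled is not given in the sources used here. Of 20 further probes of the 19 members that had more than 1, both probes of a gene were called together in 1 case, in the same direction. In every other case where 1 of them was called, the other was not.

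Solute carrier genes were called about as often as other probes. Over the 11 comparisons, 117 of the 254 members were called at least once (46.1%), against 8093 of 16463 probes (49.2%). No call was made for 137 members, and 50 were called in 1 comparison, 35 in 2, 16 in 3, 13 in 4 and 3 in 5. The 3 genes called in 5 comparisons were Slc19a1, the reduced folate carrier, Slc30a1, and Slc25a32, which carries folate or FAD into mitochondria.

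**Figure D1:**
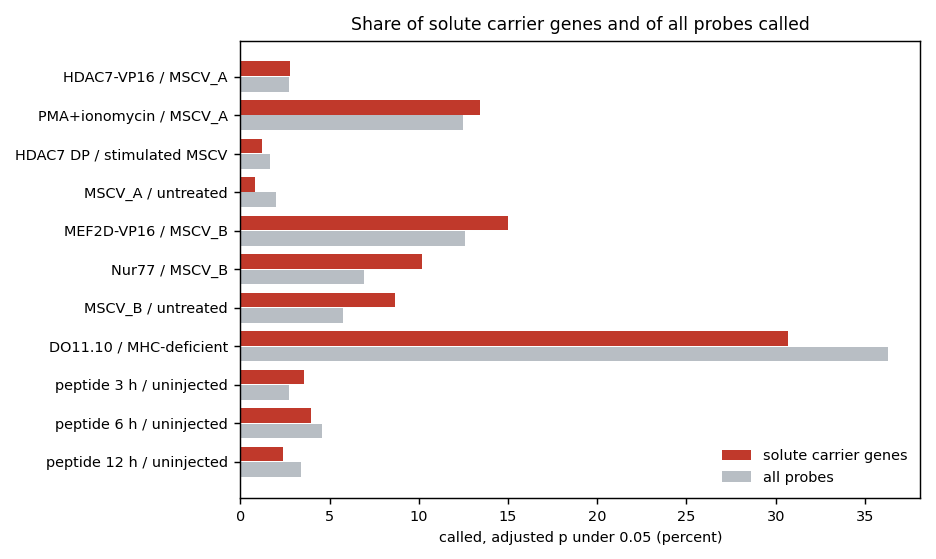
Percentage called at an adjusted p under 0.05 in each of 11 comparisons, for the 254 solute carrier genes (red) and for all 16463 probes (grey). The highest bars are those of DO11.10 over MHC-deficient thymocytes (30.7% of members and 36.3% of probes), and the lowest red bar is that of MSCV_A over untreated cells (0.787%).

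Carriers of zinc, iron, copper and magnesium were called in at least 1 comparison in 16 of 21 cases and mitochondrial carriers in 20 of 34. The shares were 10 of 18 for nucleotide sugars, 9 of 17 for sugars and sugar phosphates, 8 of 16 for vitamins, cofactors, choline and heme, 3 of 6 for nucleosides and 3 of 5 for phosphate. They were 11 of 31 for amino acids, 11 of 26 for fatty acids, bile acids and organic ions, 9 of 24 for sodium, potassium, chloride, proton and bicarbonate, and 7 of 25 for neurotransmitters, amines and osmolytes. Calcium exchangers were called in 1 of 6 cases, monocarboxylate carriers in 6 of 14, and carriers of peptides, urea and ammonium in 2 of 5. Of the 6 genes named after a carrier 1 was called.

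**Figure D2:**
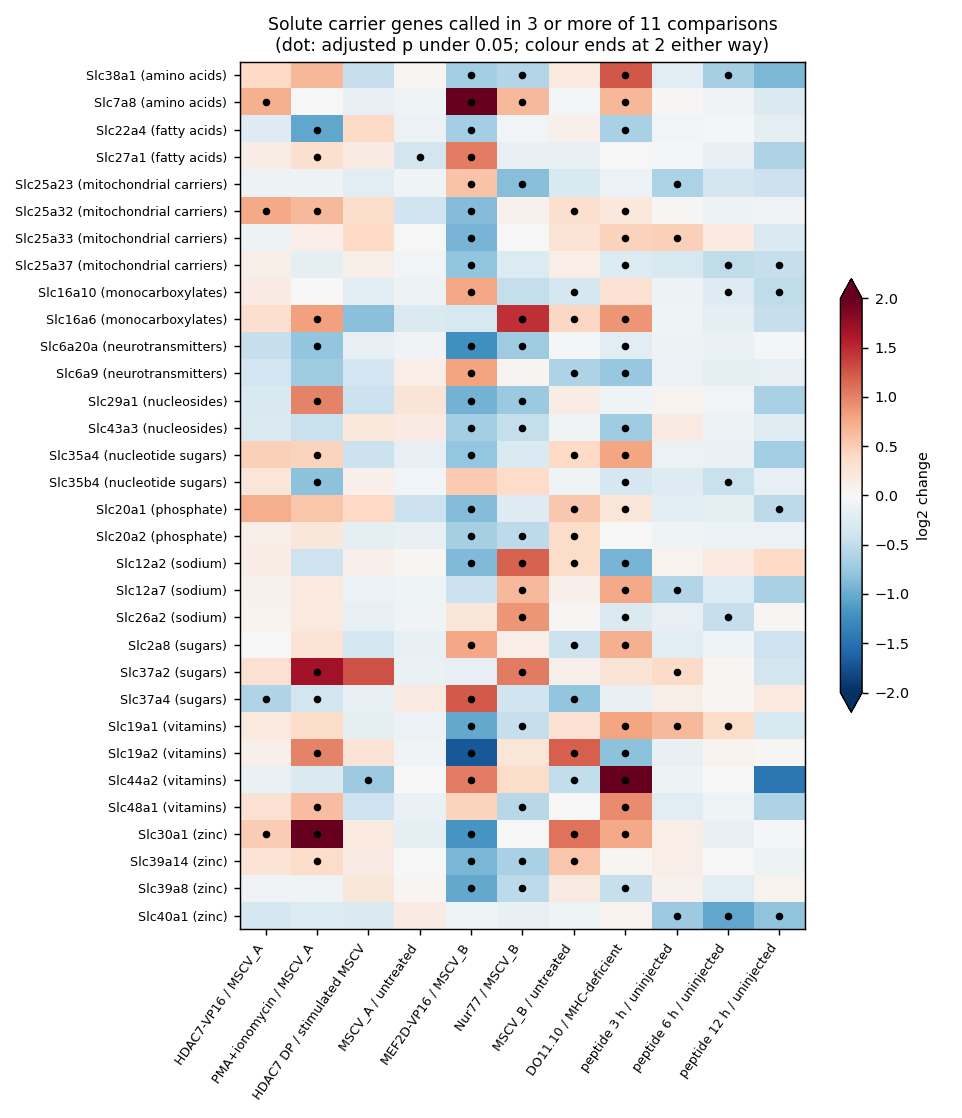
Log2 change (colour, ending at 2 in either direction) of the members called in 3 or more of 11 comparisons (columns), ordered by substrate class, with a dot where the adjusted p was under 0.05. Slc30a1 has its darkest red with PMA and ionomycin, Slc7a8 with MEF2D-VP16 and Slc44a2 in DO11.10 thymocytes, while Slc40a1 has dots in the 3 peptide columns alone.

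In cells with MEF2D-VP16, set against the empty virus MSCV_B, 38 members were called, 12 higher and 26 lower (15%, against 12.6% of all probes, of which 6.4% were higher and 6.16% lower). The median change was -0.02 for members and -0.00 for all probes. Carriers of metals were lower in 5 of 21 cases and higher in 1, and both phosphate carriers and both nucleoside carriers that were called were lower. Sugars and sugar phosphates had 2 of 17 higher and 0 lower. The arrays of both groups did not overlap for 15.9% of all probes.

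The largest rise was that of Slc7a8, the light chain of the neutral amino acid exchanger LAT2. Its log2 ratios to untreated cells were 3.15, 3.08, 2.16 and 2.58 with MEF2D-VP16, against 0.18, -0.02, -0.20 and -0.04 with MSCV_B. The groups lay far apart, and the rise was 6.77-fold (log2 change 2.76, SE 0.22, adjusted p = 8.35e-05). Slc7a8 also rose with Nur77 (0.65, SE 0.12, adjusted p = 0.00974), with ratios of 0.74, 0.74, 0.73 and 0.31, and in MEF2D-VP16 cells set directly against Nur77 cells (2.11, adjusted p = 0.0004), a comparison added after the data were seen. The partner chain of these exchangers, Slc3a2, was at -0.46 with MEF2D-VP16 and did not pass the test (adjusted p = 0.0541). Slc7a5, the light chain of LAT1, was at -0.72 (adjusted p = 0.00447), but all 4 of its MSCV_B values equalled another probe exactly.

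Among sugar and lipid carriers, Slc37a4, which brings glucose 6-phosphate into the endoplasmic reticulum, had 0.30, 0.70, 0.26 and 0.55 with MEF2D-VP16 and -1.17, -1.33, -0.05 and -0.58 with MSCV_B. The groups did not overlap, and the gene rose by 1.23 (SE 0.17, adjusted p = 0.00146). Set against the 16 arrays of both empty-virus groups, its change was 0.51 (adjusted p = 0.263). Slc27a1, a fatty acid transport protein, rose by 1.02 (SE 0.16, adjusted p = 0.00352), and Slc2a8, an intracellular glucose transporter, rose by 0.77 (SE 0.12, adjusted p = 0.00275). Slc16a10, an aromatic amino acid carrier, rose by 0.77 (SE 0.15, adjusted p = 0.00983). The MEF2D-VP16 and MSCV_B arrays did not overlap in any of these 3. MSCV_B itself was low over untreated cells for Slc37a4 (-0.78, adjusted p = 0.00649), Slc2a8 (-0.43, adjusted p = 0.0214) and Slc16a10 (-0.35, adjusted p = 0.0353). Part of their rise therefore lies in the control. None of these calls in MSCV_B held without a column for dye orientation in the model.

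Of the 3 Slc19 vitamin carriers 2 fell, and Slc19a3 was at 0.20 (adjusted p = 0.404). Slc19a2, a thiamine transporter, had -0.17, -0.75, -0.30 and -0.76 with MEF2D-VP16 and 1.77, 1.73, 0.57 and 0.70 with MSCV_B, a fall of 3.23-fold (log2 change -1.69, SE 0.14, adjusted p = 0.000117). Slc19a1 had -0.75, -0.35, -0.96 and -0.90 with MEF2D-VP16 and 0.13, 0.13, 0.56 and 0.31 with MSCV_B (-1.02, SE 0.14, adjusted p = 0.00179). Neither pair of groups overlapped. MSCV_B itself was high over untreated cells for Slc19a2 (1.19, adjusted p = 0.000292), so part of that fall lies in the control. That call in MSCV_B also ended without the dye column. Against all 16 empty-virus arrays Slc19a2 was at -0.74 (adjusted p = 0.351) and Slc19a1 at -0.73 (adjusted p = 0.109).

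Of the 21 zinc, iron, copper and magnesium carriers, 1 was higher, 5 were lower and 15 were not called with MEF2D-VP16. The zinc and iron importer Slc39a8 (ZIP8) had -1.13, -0.97, -0.32 and -0.97 with MEF2D-VP16 and 0.16, 0.09, 0.24 and 0.24 with MSCV_B, without overlap (-1.03, SE 0.18, adjusted p = 0.00459). Slc39a14 (ZIP14), its close relative, fell by 0.92 on the log2 scale (SE 0.12, adjusted p = 0.00125) with MEF2D-VP16 and also fell with Nur77 (-0.65, SE 0.11, adjusted p = 0.00511). That Nur77 change was -0.22 against all 16 empty-virus arrays (adjusted p = 0.571) and -0.65 without a dye column (adjusted p = 0.206). The zinc exporter Slc30a1 had -0.35, -0.14, 0.06 and 0.09 with MEF2D-VP16, against 1.30, 1.42, 0.86 and 0.79 with MSCV_B (-1.18, SE 0.17, adjusted p = 0.0018). The MEF2D-VP16 values lay near those of untreated cells (-0.09, adjusted p = 0.656), and the change was -0.22 against all 16 empty-virus arrays (adjusted p = 0.83).

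Slc16a1 (MCT1), which carries lactate and pyruvate, fell by 1.15 on the log2 scale (SE 0.20, adjusted p = 0.00469), with ratios of -0.91, -0.78, -1.45 and -0.84 against 0.14, 0.58, -0.11 and 0.02 with MSCV_B. Slc29a1 (ENT1), which carries nucleosides, fell by 0.94 (SE 0.16, adjusted p = 0.00391), and the mitochondrial pyrimidine nucleotide carrier Slc25a33 fell by 0.93 (SE 0.15, adjusted p = 0.00381). Slc6a20a, a proline carrier, fell by 1.23 (SE 0.23, adjusted p = 0.00714). These 4 kept their call in every refit, including each one without a single array.

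In cells with Nur77, set against the same MSCV_B arrays, 26 members were called, 15 higher and 11 lower (10.2%, against 6.91% of all probes, 3.62% higher and 3.29% lower). MEF2D-VP16 and Nur77 share these control arrays. Amino acid carriers had 3 of 31 higher and 1 lower, sugar carriers 3 of 17 higher and 1 lower, and carriers of sodium, potassium and chloride 3 of 24 higher and 0 lower. Arrays of both groups did not overlap for 7.98% of all probes. Without a column for dye orientation in the model, 6 members were called.

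The largest rise was that of Slc5a11 (SMIT2), a sodium-coupled carrier of inositol. Its ratios were 2.94, 3.71, 2.91 and 1.42 with Nur77, against 0.07, 0.11, 0.31 and -0.00 with MSCV_B. Every Nur77 array lay above every other hybridoma array, and the rise was 6.14-fold (2.62, SE 0.34, adjusted p = 0.000863). In MEF2D-VP16 cells the change of Slc5a11 over MSCV_B was 0.00 (SE 0.12, adjusted p = 1).

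Slc7a7, the light chain of the cationic amino acid exchanger y+LAT1, had 2.80, 3.29, 1.04 and 1.55 with Nur77 and 0.93, 0.80, -0.996 and -0.50 with MSCV_B. The groups did not overlap, and the change was 2.11 (SE 0.17, adjusted p = 2.61e-05). In both groups the values split by dye orientation. Slc7a7 averaged 2.58 with the test RNA in Cy5 and -1.33 with it in Cy3 in HDAC7_VP16, and 0.98 and -0.50 in MSCV_A. Without the dye column the same change had an adjusted p of 0.149, and in a single fit to all arrays 0.0695. Slc2a2 (GLUT2), a glucose transporter, had the same split: 1.87, 2.31, 0.74 and 1.18 with Nur77, against 0.79, 1.10, -0.53 and -0.13 with MSCV_B. These groups overlapped, and the rise of 1.22 (SE 0.16, adjusted p = 0.000949) was not called without the dye column (adjusted p = 0.295).

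Carriers that kept their call in every refit included Slc16a6, a member of the monocarboxylate carrier family, with 1.98, 2.26, 1.77 and 1.52 with Nur77 and 0.82, 0.63, 0.13 and 0.10 with MSCV_B (1.46, SE 0.12, adjusted p = 3.23e-05). Slc12a2 (NKCC1), which brings sodium, potassium and chloride into cells, had 1.64, 1.72, 1.35 and 1.48 with Nur77 and 0.84, 0.72, -0.09 and 0.03 with MSCV_B (1.18, SE 0.13, adjusted p = 0.000364). Slc35a5, of the nucleotide sugar family, rose by 1.29 (SE 0.20, adjusted p = 0.00275), and Slc37a2, a sugar phosphate exchanger, rose by 1.04 (SE 0.12, adjusted p = 0.000529). Groups did not overlap in any of these 4. Slc25a23, a calcium-regulated mitochondrial carrier of ATP-Mg and phosphate, was lower, with -0.88, -1.24, -1.28 and -1.25 with Nur77 and -0.31, -0.19, -0.34 and -0.38 with MSCV_B (-0.86, SE 0.12, adjusted p = 0.00111).

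**Figure D3:**
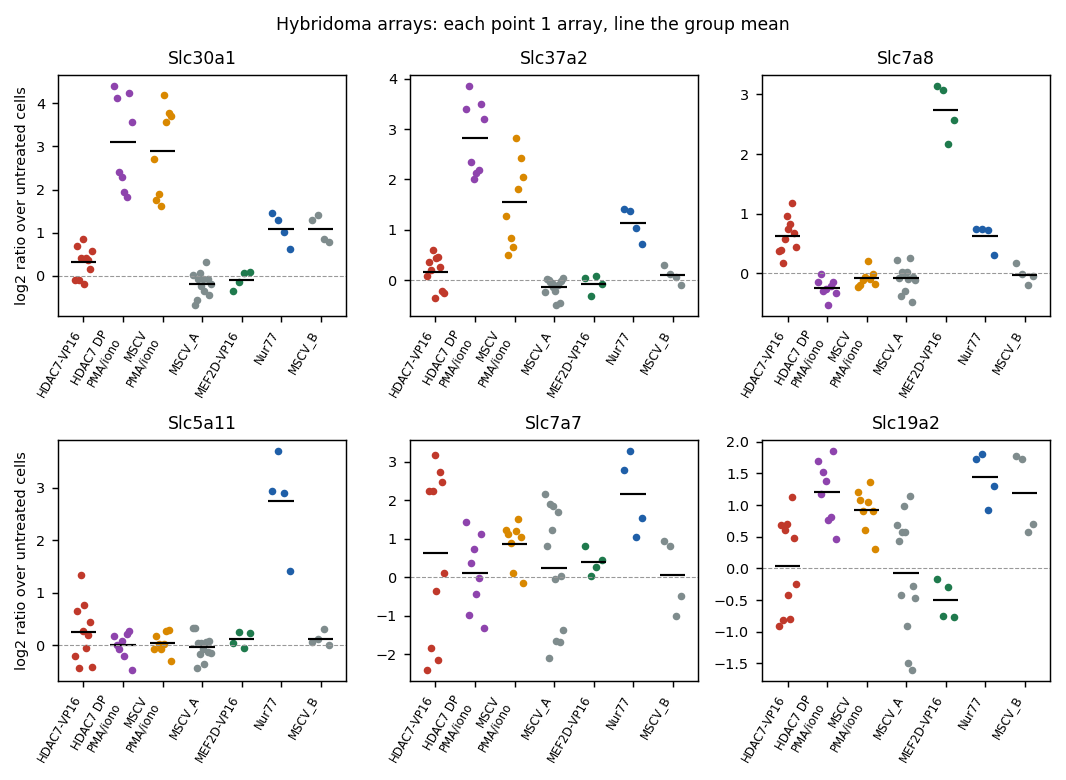
Log2 ratio over untreated hybridoma cells (vertical axis) of 6 solute carrier genes in the 7 hybridoma groups, 1 point per array, with a line at the group mean. Slc30a1 and Slc37a2 are high in the stimulated groups, Slc7a8 in MEF2D-VP16 cells (2.16 to 3.15) and Slc5a11 in Nur77 cells (1.42 to 3.71), while the points of Slc7a7 split widely within several groups.

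Set directly against Nur77 cells, MEF2D-VP16 cells had 43 members called, 12 higher and 31 lower (16.9%, against 13% of all probes, 6.73% higher and 6.23% lower). Slc25a23 was higher by 1.43 (adjusted p = 0.000236), Slc37a4 by 1.63, Slc16a10 by 1.25, Slc27a1 by 1.17 and the lysosomal heme transporter Slc48a1 by 1.01. The lower members included Slc5a11 at -2.62 (adjusted p = 0.00173), Slc12a2 at -2.06 (adjusted p = 0.000165), Slc19a2 at -1.93 (adjusted p = 3.48e-05) and Slc16a6 at -1.79 (adjusted p = 0.000109). Of the 31 members in the amino acid class, which leaves out Slc16a10, 1 was higher and 6 were lower.

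HDAC7-VP16, set against the empty virus MSCV_A, had 7 members called, 5 higher and 2 lower (2.76%, against 2.72% of all probes, 1.42% higher and 1.29% lower). Slc7a8 had the smallest adjusted p. Its ratios had a lowest, median and highest value of 0.18, 0.62 and 1.18 with HDAC7-VP16, against -0.48, -0.07 and 0.25 with MSCV_A. All 10 HDAC7-VP16 arrays lay above 0, with a slight overlap between groups, and the rise was 1.64-fold (0.71, SE 0.11, adjusted p = 0.000522). Slc2a2 had 0.14, 0.67 and 1.25, against -0.51, 0.13 and 0.52 with MSCV_A (0.65, SE 0.13, adjusted p = 0.00445). Slc25a32 had -0.29, 0.33 and 1.23, against -0.996, -0.45 and 0.33 with MSCV_A (0.75, SE 0.15, adjusted p = 0.00647), and its change was 0.57 against the 16 empty-virus arrays (adjusted p = 0.0922).

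Slc37a4, which rose with MEF2D-VP16, was lower with HDAC7-VP16, at -0.96, -0.41 and 0.35, against -0.21, 0.26 and 0.44 with MSCV_A (-0.61, SE 0.14, adjusted p = 0.0154). With the signs of MSCV_A replicates 3 and 9 turned it was at -0.52 (adjusted p = 0.0509), and against the 16 empty-virus arrays at -0.37 (adjusted p = 0.542). Slc30a1 was higher by 0.50 (SE 0.13, adjusted p = 0.0409), a call that ended in 13 of 22 refits without a single array (0.44 to 0.51) and was 0.18 against all 16 empty-virus arrays (adjusted p = 0.864). The other called members were Slc25a38, a mitochondrial glycine carrier needed for heme (0.50, adjusted p = 0.0272), and the bicarbonate carrier Slc4a8 (-0.53, adjusted p = 0.0274). The call of Slc25a38 ended without MSCV_A replicate 4 or HDAC7_VP16 replicate 1, 4 or 6 (0.47 to 0.49), and that of Slc4a8 without HDAC7_VP16 replicate 2, 7 or 8 (-0.52 to -0.48).

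Within slide series 14 alone 0 members were called, and within series 15 alone 12. Both MSCV_A arrays of unsettled sign, replicates 3 and 9, lie in series 14. They are also among the controls of the series 14 values given below for PMA and ionomycin. In series 14 Slc7a8 was at 0.60 (adjusted p = 0.371), Slc2a2 at 0.48 (adjusted p = 0.739) and Slc25a32 at 0.83 (adjusted p = 0.485).

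PMA and ionomycin, in empty-virus cells set against the same MSCV_A arrays, gave 34 members called, 21 higher and 13 lower (13.4%, against 12.5% of all probes, 6.07% higher and 6.43% lower). Carriers of zinc, iron, copper and magnesium had 5 of 21 higher and 0 lower, with a median change of 0.04 (all probes -0.01). Nucleotide sugar carriers had 2 of 18 higher and 5 lower, with a median of -0.12, and vitamin carriers had 3 of 16 higher and 1 lower. HDAC7-VP16 and this comparison share their control arrays. Arrays of both groups did not overlap for 1.79% of all probes.

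Slc30a1 rose most. Its lowest, median and highest ratios were 1.62, 3.14 and 4.196 with PMA and ionomycin, against -0.68, -0.13 and 0.32 with MSCV_A. No stimulated array overlapped the unstimulated ones, and the rise was 8.54-fold (3.09, SE 0.30, adjusted p = 5.11e-07). Slc30a2, another zinc exporter, had 0.56, 1.34 and 2.17, against -0.31, 0.29 and 0.55 with MSCV_A (1.10, SE 0.19, adjusted p = 0.000363). The metal carriers that rose with them were the Golgi zinc carrier Slc30a7 (0.44, adjusted p = 0.0249) and the importers Slc39a4 (0.70, adjusted p = 0.0153) and Slc39a14 (0.37, adjusted p = 0.00775). Outside the family, the metallothionein gene Mt2, a metal-binding protein, rose by 1.35 (adjusted p = 2.66e-05), as 1 of 2 higher among 12 metal handling genes, of which 0 were lower.

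Slc37a2 rose 3.21-fold (1.68, SE 0.24, adjusted p = 6.51e-05), with 0.50, 1.55 and 2.81 in stimulated cells and -0.49, -0.08 and 0.04 with MSCV_A, without overlap. Slc12a4 (KCC1), a potassium-chloride exporter, rose by 1.21 (SE 0.16, adjusted p = 2.1e-05), and Slc25a25, a mitochondrial carrier of ATP-Mg and phosphate regulated by calcium, rose by 1.17 (SE 0.15, adjusted p = 1.4e-05). Like Slc30a1 and Slc37a2, this pair was called in every refit. Slc29a1 was higher here by 0.99 (SE 0.16, adjusted p = 0.00018), or 0.82 within slide series 14 alone (adjusted p = 0.0755).

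Among nucleotide sugar carriers, Slc35b4 had -1.05, -0.86 and -0.75 in stimulated cells and -1.17, -0.02 and 0.57 with MSCV_A (-0.83, SE 0.15, adjusted p = 0.000822). The other probe of Slc35b4 was at -0.12 and did not pass the test (adjusted p = 0.547). Slc35a1, which brings CMP-sialic acid into the Golgi apparatus, had -1.24, -0.56 and -0.40, against -0.50, -0.02 and 0.25 with MSCV_A (-0.74, SE 0.12, adjusted p = 0.000261). Within slide series 14 alone neither was called (Slc35b4 -0.79, adjusted p = 0.151, and Slc35a1 -0.82, adjusted p = 0.0529). Slc6a20a fell by 0.79 on the log2 scale (SE 0.13, adjusted p = 0.000253) and Slc46a3, a lysosomal carrier, by 0.64 (SE 0.10, adjusted p = 0.00028), both without overlap between groups. Within series 15 alone these were at -0.42 (Slc6a20a, adjusted p = 0.0563) and -0.63 (Slc46a3, adjusted p = 0.0646), and Slc30a2 was at 0.66 (adjusted p = 0.0597).

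The size of the response differed between slides of a group. In MSCV_PI the 4 arrays of slides 13 and 14 averaged 2.00 for Slc30a1, 0.82 for Slc37a2 and 0.65 for Slc25a25, and the 4 arrays of slides 15 and 16 averaged 3.81 for Slc30a1, 2.28 for Slc37a2 and 1.51 for Slc25a25. In HDAC7DP_PI the means of Slc30a1 were 4.09 on slides 17 and 18 and 2.12 on slides 19 and 20. The organic cation carrier Slc22a4 averaged -0.03 on MSCV_PI slides 13 and 14 and -2.30 on slides 15 and 16. No source used here says what a slide number stands for besides the slide. With arrays of the same slide number averaged, the rises with PMA and ionomycin were 3.09 for Slc30a1 (adjusted p = 0.00152), 1.68 for Slc37a2 (adjusted p = 0.0103) and 1.17 for Slc25a25 (adjusted p = 0.00534). The value of Slc22a4 was then -1.04 (adjusted p = 0.254), and 5 of the named calls with PMA and ionomycin ended.

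HDAC7 DP cells, set against empty-virus cells with the same stimulus, had 3 members called, 2 higher and 1 lower (1.18%, against 1.65% of all probes, 0.522% higher and 1.12% lower). Slc44a2, a choline transporter-like protein, had -1.62, -1.004 and -0.50 with HDAC7 DP, against -0.70, -0.31 and 0.24 in MSCV_PI (-0.72, SE 0.13, adjusted p = 0.00546). Slc46a3 had -0.25, -0.14 and 0.15, against -0.76, -0.43 and -0.34 in MSCV_PI (0.38, adjusted p = 0.0296), and the taurine carrier Slc6a6 was higher by 0.31 (adjusted p = 0.0285). No call held when neighbouring dye-swapped slides were averaged (0 members called), and within slide series 14 and 15 alone Slc44a2 was at -0.70 (adjusted p = 0.0905) and -0.75 (adjusted p = 0.345). Without a single array the call of Slc46a3 ended in 7 of 16 refits (0.34 to 0.39) and that of Slc6a6 in 11 (0.29 to 0.31). Slc37a2 had a mean of 2.83 with HDAC7 DP and 1.55 in MSCV_PI, a difference of 1.28 (SE 0.38) that did not pass the test (adjusted p = 0.117).

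The empty virus was itself compared with untreated cells. MSCV_A had 2 members called (0.787%, against 1.97% of all probes, 0.626% higher and 1.35% lower). Slc25a13, the mitochondrial aspartate-glutamate carrier, had 0.01, 0.79 and 1.76, above 0 on 12 of 12 arrays (0.77, SE 0.11, adjusted p = 0.00444). It was at 0.48 with the signs of replicates 3 and 9 turned (adjusted p = 0.536). The other, Slc27a1, was at -0.36 (adjusted p = 0.0203), and its call ended without replicate 1 or 5 (-0.36 to -0.35).

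MSCV_B had 22 members called, 13 higher and 9 lower (8.66%, against 5.72% of all probes, 2.71% higher and 3.01% lower), and 0 without the dye column, where Slc19a2 (1.19) had an adjusted p of 0.242, Slc30a1 (1.09) one of 0.0977 and Slc37a4 (-0.78) one of 0.397. With the dye column the adjusted p was 0.000292 for Slc19a2, 0.000407 for Slc30a1 and 0.00649 for Slc37a4. Metal carriers had 4 of 21 higher and 0 lower, and phosphate carriers 2 of 5 higher and 0 lower.

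Total thymocytes of DO11.10 mice, set against those of MHC-deficient mice, had 78 members called, 49 higher and 29 lower (30.7%, against 36.3% of all probes, 20.5% higher and 15.8% lower). Mitochondrial carriers had 14 of 34 higher and 3 lower, with a median change of 0.09 (all probes -0.01). Nucleotide sugar carriers had 6 of 18 higher and 2 lower, amino acid carriers 5 of 31 higher and 2 lower, sugar carriers 4 of 17 higher and 1 lower, and metal carriers 4 of 21 higher and 5 lower. The 16 members in the plot of this comparison were called in every refit.

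Slc15a2 (PEPT2), which takes up di- and tripeptides, was 18.0-fold lower, with ratios of -4.69, -4.11 and -3.81 (lowest, median, highest of 6 arrays; log2 change -4.17, SE 0.13, adjusted p = 1.36e-06). Slc6a19, a neutral amino acid carrier, had -2.74, -2.05 and -1.78 (-2.12, SE 0.10, adjusted p = 6.41e-06). Slc16a3 (MCT4), which exports lactate, had -2.17, -1.91 and -1.57 (-1.90, SE 0.06, adjusted p = 1.59e-06). All 6 arrays lay below 0 for each, as they did for the zinc exporter Slc30a4 (-1.25, SE 0.07), the glutamine carrier Slc1a5 (-1.14, SE 0.06), Slc12a2 (-0.94, SE 0.04) and Slc19a2 (-0.81, SE 0.09).

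Slc44a2 was highest, with 2.28, 2.54 and 3.56 (6.76-fold, log2 change 2.76, SE 0.13, adjusted p = 5.47e-06). Slc2a9, a urate transporter, had 1.88, 1.95 and 2.44 (2.07, SE 0.07, adjusted p = 1.43e-06). Slc35b2, which brings the sulfate donor PAPS into the Golgi apparatus, had 1.28, 1.47 and 2.01 (1.57, SE 0.11, adjusted p = 3.65e-05). The other high members included Slc38a1 (SNAT1), a glutamine carrier (1.25, SE 0.08), Slc48a1 (0.95, SE 0.05) and the mitochondrial carriers Slc25a30 (1.46, SE 0.07), Slc25a20, which carries acylcarnitines (1.05, SE 0.07), and Slc25a1, which exports citrate (0.83, SE 0.07). All 6 arrays lay above 0 for each of these.

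**Figure D4:**
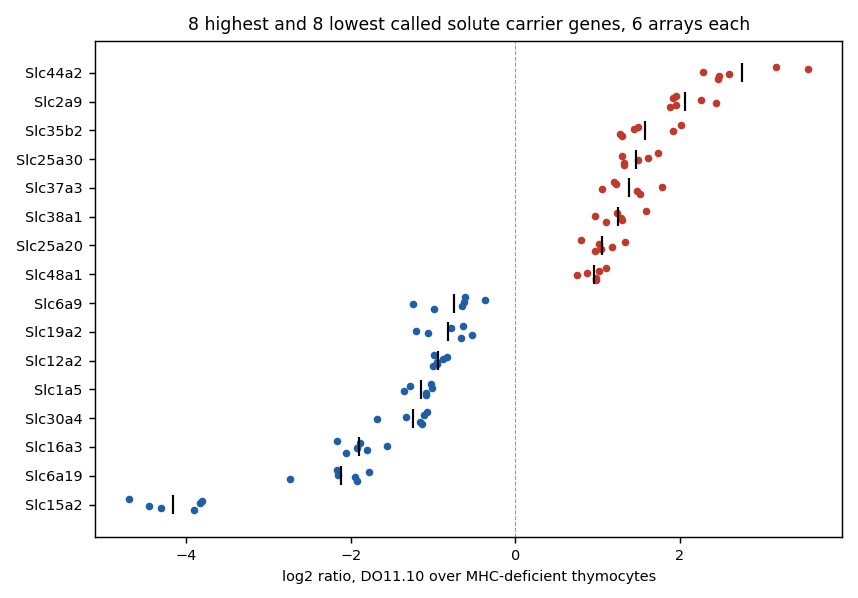
Log2 ratio of DO11.10 over MHC-deficient thymocytes (horizontal axis) for the 8 highest and 8 lowest called members, with 1 point for each of 6 arrays and a line at the mean. The points run from -4.69 to -3.81 for Slc15a2 and from 2.28 to 3.56 for Slc44a2, and no gene shown has points on both sides of 0.

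Markers of several cell types were called in the same comparison, where 20.5% of all probes were higher and 15.8% lower. Of 15 thymic epithelium markers, 2 were lower and 7 higher, with Prss16 (2.60), Krt8 (1.01) and Psmb11 (0.93) among the higher ones. Slc46a2, a carrier known from thymic stroma, was at 0.75 (SE 0.15, adjusted p = 0.0058). Of 12 myeloid markers 2 were higher and 6 lower, and of 10 stroma and endothelium markers 4 were higher and 0 lower. Of 7 erythroid markers 1 was higher and 0 lower, the heme synthesis enzyme Alas2 (2.04). Of 8 B cell markers 3 were higher and 3 lower, and of 13 T cell markers 5 were higher and 4 lower. Their part in the result was not tested.

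After peptide injection, arrays 1 and 2 of each time stood apart from the other 4. Their correlations with those over all probes ran from -0.19 to 0.26 at 3 h, from 0.13 to 0.42 at 6 h and from 0.087 to 0.27 at 12 h, against 0.38 to 0.63, 0.37 to 0.66 and 0.67 to 0.85 among the other 4 at these times. Values with the 4 arrays are therefore given beside those with 6. The labels place all 6 arrays at 3 h, and arrays 1 and 2 at 6 h and 12 h, in slide series 13, and the labels 13-5 to 13-8 each occur at 3 h and again at 6 h or 12 h. All 3 times share their partner, uninjected thymocytes. By their labels, untreated DO11.10 thymocytes are both this partner and the test RNA set over MHC-deficient thymocytes. Whether it was the same RNA is not given. If it was, a gene high in that RNA is raised in one ratio and lowered in the other. Opposite signs in these comparisons are therefore not separate results.

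With 6 arrays, 9 members were called at 3 h, 5 higher and 4 lower (3.54%, against 2.71% of all probes, 1.49% higher and 1.21% lower), 10 at 6 h, 2 higher and 8 lower (3.94%, against 4.57%, 2.03% higher and 2.54% lower), and 6 at 12 h, 1 higher and 5 lower (2.36%, against 3.38%, 1.66% higher and 1.72% lower). With 4 arrays the counts were 26 (14 higher, 12 lower; all probes 8.79%), 20 (4 higher, 16 lower; 11.6%) and 53 (13 higher, 40 lower; 24.7%). As shares of the 254 members these lay above all probes at 3 h and below them at 6 h and 12 h. Directions of all probes were not counted with 4 arrays, so the members' split has nothing to be set against. Of the members called with 6 arrays, 8 of 9, 10 of 10 and 6 of 6 were also called with 4. The 4 arrays are part of the 6 and were picked because they correlate with each other. Neither this overlap nor the adjusted p-values with 4 arrays are therefore separate support.

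Slc40a1, ferroportin, the sole known iron exporter of mammalian cells, was the member lower at all 3 times. Its ratios were -0.59, -0.76, -0.75, -0.61, -0.91 and -0.73 at 3 h (-0.72, adjusted p = 0.0021). They were -0.88, -1.06, -1.10, -1.19, -1.19 and -0.86 at 6 h (-1.05, adjusted p = 0.000189) and -1.47, -0.36, -0.57, -0.91, -0.67 and -0.86 at 12 h (-0.81, adjusted p = 0.0321). All 18 arrays lay below 0, and with 4 arrays the changes were -0.75 at 3 h, -1.09 at 6 h and -0.75 at 12 h (adjusted p = 0.00676, 0.000479 and 0.00102). The call at 12 h ended without replicate 3, 4, 5 or 6 (-0.91 to -0.75). Ferroportin is strong in macrophages. Of 12 myeloid markers 3 were lower at 3 h, 5 at 6 h and 1 at 12 h. They included C1qc at -0.58, -0.57 and, not called, -0.32. Lower calls made up 1.21%, 2.54% and 1.72% of all probes at these times. Other lists had lower calls too. Erythroid markers were lower in 1, 2 and 0 of 7 cases, and stroma and endothelium markers in 1, 2 and 0 of 10, with 0 higher in either list. The 4 arrays gave 5 lower myeloid markers at 3 h, 8 at 6 h and 5 at 12 h, with 2 higher at 12 h. With them 2, 4 and 3 erythroid markers were lower at these times and 0 higher. Stroma and endothelium markers were then lower in 4, 5 and 4 cases, with 1 higher at 12 h. Of all probes 8.79%, 11.6% and 24.7% were called with the 4 arrays, in either direction. Their part in the result was not tested.

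Slc19a1 was higher early, with 0.44, 0.81, 0.50, 0.49, 0.66 and 1.03 at 3 h (0.66, adjusted p = 0.00492, and 0.67 with the 4 arrays, adjusted p = 0.0132), a mean of 0.36 at 6 h (adjusted p = 0.0285, not called without replicate 2, 3, 4, 5 or 6, at 0.32 to 0.41) and of -0.31 at 12 h (adjusted p = 0.155). Its change with the 4 arrays was 0.34 at 6 h (adjusted p = 0.0425) and -0.41 at 12 h (adjusted p = 0.0357). Slc7a5 (LAT1), the amino acid carrier that rises in activated T cells, had 1.07, 0.73, 0.56, 0.50, 0.58 and 0.72 at 3 h (0.69, adjusted p = 0.011) and means of 0.25 at 6 h and -0.18 at 12 h. Its call at 3 h ended without replicate 5 (0.72, adjusted p = 0.0614) or 6 (0.68, adjusted p = 0.0628), and with the 4 arrays it was 0.59 (adjusted p = 0.00917). Slc25a33 rose by 0.48 at 3 h (adjusted p = 0.0251, not called without replicate 3, 4 or 5, at 0.43 to 0.50) and averaged 0.19 at 6 h and -0.29 at 12 h. The 4 arrays put Slc25a33 at 0.47 at 3 h (adjusted p = 0.0437), 0.08 at 6 h (adjusted p = 0.429) and -0.31 at 12 h (adjusted p = 0.018). A test of the difference among the 3 times called all of these (adjusted p = 0.00148 for Slc19a1, 0.00341 for Slc7a5 and 0.00156 for Slc25a33), within 8 members in all (3.15%, against 4.09% of all probes). With the 4 arrays a time 48 members were called (all probes 19.8%).

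At 12 h the amine carrier Slc22a2 (OCT2) had 0.88, 0.87, 0.84, 0.51, 1.07 and 1.24 (0.90, adjusted p = 0.00711), and without replicate 5 the same gene was at 0.90 (adjusted p = 0.0616). With the 4 arrays it was at 0.91 (adjusted p = 0.000373). Arrays 1 and 2 differed from the other 4 at 12 h in several genes that were high in DO11.10 thymocytes, by label also the partner here. Slc44a2 had 0.69 and -0.58 on arrays 1 and 2 and -2.41, -2.31, -1.96 and -2.11 on the other 4, so that 6 arrays gave -1.45 (adjusted p = 0.117) and 4 gave -2.20 (adjusted p = 1.03e-05). Slc35b2 was at -1.18 with 6 arrays (adjusted p = 0.0668) and -1.65 with 4 (adjusted p = 1.64e-05), and Slc38a1 at -0.89 (adjusted p = 0.0526) and -1.19 (adjusted p = 4.7e-05). Slc25a1 was at -0.57 with 6 arrays (adjusted p = 0.34) and -1.12 with 4 (adjusted p = 6.57e-05).

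Slc16a3, which was low in DO11.10 thymocytes, had 2.20 and 1.84 on arrays 1 and 2 at 12 h and 0.72, 0.56, 0.81 and 0.74 on the others. All 6 lay above 0, and the change was 1.14 with 6 arrays (adjusted p = 0.0637) and 0.71 with 4 (adjusted p = 0.000549). Slc46a2, the carrier known from thymic stroma, was at -0.65, -1.39, -0.73, -0.41, -0.44 and -0.44 at 6 h (-0.68, adjusted p = 0.0259, not called without replicate 3, 4, 5 or 6, at -0.75 to -0.64). With the 4 arrays Slc46a2 was at -0.50 at 6 h (adjusted p = 0.00722). Its means of 6 arrays were -0.59 at 3 h and -0.74 at 12 h, neither of them called. The F test among the 3 times did not call it (adjusted p = 0.965). Lower calls made up 1.21% of all probes at 3 h, 2.54% at 6 h and 1.72% at 12 h. Of 15 thymic epithelium markers 6 were lower at 3 h, 7 at 6 h and 3 at 12 h. They included Prss16 at -1.98, -1.84 and -1.96. Among the 4 arrays 7 were lower at 3 h and 7 at 6 h, while at 12 h 3 were higher and 4 lower. Of 13 T cell markers 2 were higher and 6 lower at 12 h with the 4 arrays, against 0 higher and 1 lower with 6. Their part in the result was not tested.

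**Figure D5:**
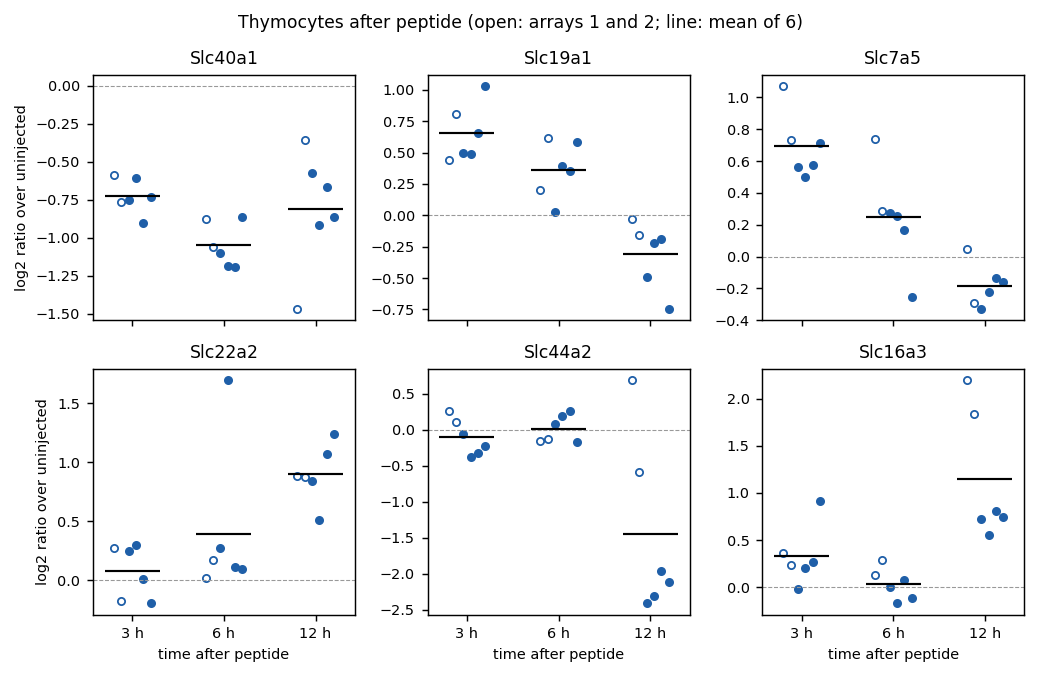
Log2 ratio over uninjected thymocytes (vertical axis) of 6 members 3 h, 6 h and 12 h after peptide, 1 point per array, open for arrays 1 and 2, with a line at the mean of 6. Slc40a1 lies below 0 on all 18 arrays, Slc19a1 and Slc7a5 are highest at 3 h, and the open points of Slc44a2 and Slc16a3 lie apart at 12 h.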

How the data were processed

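The authors deposited log2 ratios of both channels of each 2-colour array (total RNA, aminoallyl cDNA coupled to Cy3 and Cy5, per the labels' protocols). No source used here gives log base, normalization, scanner or filling, so base 2 was assumed and signal over background was not measured. All 74 arrays entered, in the groups of their labels, and each was centred on its median. limma 3.58.1 (lmFit, eBayes; statmod 1.5.0, R 4.3.3) modelled each probe over the arrays of a comparison, with a dye column. Empty-virus and thymocyte ratios were tested against 0, the other comparisons group against group, and a moderated F test compared peptide times. Benjamini-Hochberg adjustment ran over all 16463 probes. The scripts were tested on simulated data.

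Named members were, per comparison, the 8 highest and 8 lowest called by log2 change and the most changed called member of each class (against 0, with the direction on 80% of arrays). Members not called are named as such. Outside this rule, and named after their values were seen, were Slc30a7, Slc39a4 and Slc39a14 with PMA and ionomycin, Slc7a5 and Slc39a14 with MEF2D-VP16, Slc7a8 with Nur77, and Slc25a1 and Slc46a2 in DO11.10 thymocytes. The members, classes and marker lists were chosen with earlier results of these data known. Alternatives were no dye column, no centring, scaled arrays, 1 fit to all arrays, slide series or slides as blocks, other controls, turned signs, the mean over probes and fits without 1 array. Promoters were searched by exact letters.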

Additional observations from a re-analysis of the deposited data

Results flagged for a closer look

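Single arrays far from the rest of their group were found in 3 of the 191 combinations of a named member and a group that were examined, where chance would give 9.55, since chance alone marks about 1 in 20. Slc25a23 was at -0.876 in NUR77 replicate 1, against -1.28 to -1.242 in the other 3 arrays. Slc7a8 was at 0.306 in NUR77 replicate 4, against 0.731 to 0.739 in the others. Slc46a2 was at -1.385 in PEPTIDE_6H replicate 2, against -0.729 to -0.406 in the others.

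Differences among the 3 peptide times passed limma's F test for 8 members. The adjusted p was 0.00148 for Slc19a1, 0.00156 for Slc25a33, 0.00341 for Slc7a5 and 0.00385 for Slc37a2. It was 0.0255 for Slc14a1, 0.0264 for Slc26a6, 0.0285 for Slc29a1 and 0.0288 for Slc16a3. With the 4 arrays a time that resemble each other, the adjusted p was 3.82e-04 for Slc19a1, 2.68e-04 for Slc25a33 and 4.63e-03 for Slc16a3.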

How the results depend on the processing

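Of the 154 named results, 56 kept direction and call in every fit, 98 lost the call in at least 1, and 1 reversed. The reversed one was Slc46a3 with HDAC7 DP, which was at -0.11 over untreated cells. That control lacks PMA and ionomycin, so a change of HDAC7 DP cells over it also holds the stimulus and answers another question. Leaving out the dye column ended 42 of the 154 calls, a single fit to all arrays 38, scaling 13 and no centring 1. Members called without a dye column were 6 with Nur77 (26 with it), 0 in MSCV_B (22) and 10 at 12 h (6). In a single fit to all arrays they were 5 for HDAC7 DP (3), 4 in MSCV_A (2), 7 in MSCV_B and 39 at 12 h. Scaling gave 5 for HDAC7 DP. Slide series 14 and 15 alone gave 0 and 12 for HDAC7-VP16 (7), 14 and 12 for PMA and ionomycin (34) and 1 and 0 for HDAC7 DP, and series 14 gave 0 in MSCV_A. Averaging arrays of the same slide number ended 10 of the 30 named calls it was run on, and neighbouring slides 3 of 3; they gave 0 and 0 for HDAC7 DP. With 16 empty-virus arrays there were 3 for HDAC7-VP16 and 19 for MEF2D-VP16 (38). Over untreated cells there were 42 for Nur77, and 54 for HDAC7 DP together with its stimulus. Turned signs of replicates 3 and 9 gave 0 in MSCV_A. Without arrays 1 and 2 there were 26 at 3 h (9), 20 at 6 h (10), 53 at 12 h and 48 for the difference between times (8). The shares of all probes called were then 8.79%, 11.6%, 24.7% and 19.8%. For the other refits, here, above and below, the share of all probes called is not given. Their counts therefore do not show whether the members or all probes changed.

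Leaving out 1 array at a time gave 5 to 10 members for HDAC7-VP16, 29 to 36 for MEF2D-VP16, 16 to 25 for Nur77, 27 to 37 for PMA and ionomycin, 1 to 4 for HDAC7 DP, 1 to 3 in MSCV_A and 8 to 11 in MSCV_B. It gave 63 to 78 for DO11.10 over MHC-deficient thymocytes, 29 to 42 for MEF2D-VP16 over Nur77, and 6 to 20 for the difference between peptide times. At 3 h it gave 2 (without replicate 5) to 13, at 6 h 2 (without replicate 3) to 12 and at 12 h 0 (without replicate 5) to 23 (without replicate 2). No paired analysis was possible because replicate numbers were given in accession order and pair no samples. The number of arrays, and the missing signal over background, limit what small changes could show. The cause of these shifts was not tested.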

Other observations

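Other membrane transporters, a list of 68 ABC transporters, aquaporins and ion pumps, had 4 higher and 3 lower with Nur77 (all probes 3.62% and 3.29%), among them the cholesterol exporter Abca1 (1.76, adjusted p = 0.00037) and the drug exporter Abcb1a (1.33, adjusted p = 0.00591). With MEF2D-VP16, 2 were higher and 1 lower (all probes 6.4% and 6.16%), and Abcb1a rose by 1.84 (adjusted p = 0.00125). With PMA and ionomycin 3 were higher and 4 lower (all probes 6.07% and 6.43%): the cholesterol exporter Abcg1 was at -2.22 (adjusted p = 1.55e-09), and the calcium pumps Atp2b1 and Atp2a2 were at 1.30 (adjusted p = 0.0028) and 1.27 (adjusted p = 1.45e-06). In DO11.10 over MHC-deficient thymocytes 13 were higher and 11 lower (all probes 20.5% and 15.8%), with Aqp11 at -2.80 (adjusted p = 1.36e-06) and the calcium pump Atp2a3 at 1.60 (adjusted p = 7.4e-06).

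Of 12 metal handling genes outside the family, 1 was higher and 2 lower 3 h after peptide (all probes 1.49% and 1.21%). At 6 h 2 were higher and 2 lower (all probes 2.03% and 2.54%), and at 12 h 2 higher and 0 lower (all probes 1.66% and 1.72%). With the 4 arrays that lie together 3 were higher and 6 lower at 12 h, where 24.7% of all probes were called. In DO11.10 over MHC-deficient thymocytes 6 were higher and 3 lower (all probes 20.5% and 15.8%), and with HDAC7-VP16 0 were higher and 1 lower (all probes 1.42% and 1.29%). Mt2 was at 0.85 at 3 h, 1.58 at 6 h and 2.27 at 12 h after peptide (adjusted p = 0.0116, 0.016 and 0.00393), at -2.35 in DO11.10 over MHC-deficient thymocytes and at -1.23 with HDAC7-VP16 (adjusted p = 0.00234).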
